A study of Homo sapiens with 10 samples.

Results

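Matrix metalloproteinases (MMPs), their tissue inhibitors (TIMPs), the membrane-anchored ADAM proteases and the secreted ADAMTS and ADAMTS-like (ADAMTSL) proteins were followed through total RNA sequencing of H441 cells, an established human lung adenocarcinoma line. The genes were taken by name from the deposited count table, and a gene was kept as a member where at least 2 of the 10 libraries held 10 or more reads of it. Of 62709 entries with values, 75 carried a name of these families and 27 were members: 9 of 24 MMPs, 2 of 4 TIMPs, 9 of 23 ADAMs, 5 of 19 ADAMTS and 2 of 5 ADAMTSL entries. Of the 48 other entries, 17 had no read in any library and 31 had fewer reads than the rule asked for.

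All groups were H441, labelled as epithelial cells of the lung, and grown alike with serum. In the KO group (3 libraries), TET1, whose protein oxidises the methyl group of methylated cytosines, had been knocked out with CRISPR-Cas9 in the wild-type line, and the labels do not say whether those cells were 1 clone or a pool. The OE group (2 libraries) had been transiently transfected with a plasmid for full-length human TET1, so the TET1 RNA in it was plasmid-borne in all or part. The Lipo group (2 libraries, numbered 2 and 3) was labelled as untreated wild type, and its title is not explained in the labels. The WT group (3 libraries) was untreated wild type. The design asks what removing and what adding TET1 does to RNA levels, and KO was set against WT, OE against Lipo, and Lipo against WT.

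The proteases among these proteins cut the proteins around cells. Secreted MMPs include the collagenases MMP1 and MMP13, which cleave fibrillar collagen, the stromelysin MMP10, the gelatinase MMP9, which cuts denatured collagen and basement membrane collagen, and the small matrilysin MMP7. The membrane-type enzyme MMP14 cuts collagen at the cell surface and activates the precursors of other MMPs, and TIMPs block active MMPs and some ADAMs by binding their active site. ADAM10 and ADAM17 shed growth factors, cytokine receptors and adhesion proteins from the cell surface. In lung cancer these enzymes are studied for their place in invasion, in the release of growth factors and in the remodelling of stroma.

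The stretches just upstream of 4 members are shown because 2 of them (MMP10 and MMP7) lie in the same gene cluster on chromosome 11 but had different values in OE, and the other 2 (MMP14 and ADAM10) were lower in KO and differ in CpG content, the dinucleotide in which TET1 acts. Each is the 250 bases before the RefSeq start, read 5′ to 3′ on the gene's strand, in the GRCh38.p14 assembly. The table of promoters used here matched 16 of the 27 members. In MMP10 (chr11:102780629-102780878, minus strand) and MMP7 (chr11:102530748-102530997, minus strand), capitals mark the AP-1 motif TGANTCA and the TATA box TATAAA. In MMP14 (chr14:22836335-22836584, plus strand) and ADAM10 (chr15:58749708-58749957, minus strand), capitals mark each CG.
MMP10: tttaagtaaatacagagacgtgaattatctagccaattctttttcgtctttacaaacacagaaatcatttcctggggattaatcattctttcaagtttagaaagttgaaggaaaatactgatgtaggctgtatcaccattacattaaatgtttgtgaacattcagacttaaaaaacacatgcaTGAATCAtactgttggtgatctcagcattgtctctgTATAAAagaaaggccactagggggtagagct
MMP7: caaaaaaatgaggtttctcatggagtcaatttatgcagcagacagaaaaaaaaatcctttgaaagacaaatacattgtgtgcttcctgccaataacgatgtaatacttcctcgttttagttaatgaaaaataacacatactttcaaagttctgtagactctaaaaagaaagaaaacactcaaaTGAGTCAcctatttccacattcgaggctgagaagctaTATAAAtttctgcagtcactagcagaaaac
MMP14: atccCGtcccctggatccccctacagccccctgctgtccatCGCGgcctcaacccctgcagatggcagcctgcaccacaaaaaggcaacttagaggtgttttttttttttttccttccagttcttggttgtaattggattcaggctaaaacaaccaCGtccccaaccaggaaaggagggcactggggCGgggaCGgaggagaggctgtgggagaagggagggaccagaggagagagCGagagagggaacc
ADAM10: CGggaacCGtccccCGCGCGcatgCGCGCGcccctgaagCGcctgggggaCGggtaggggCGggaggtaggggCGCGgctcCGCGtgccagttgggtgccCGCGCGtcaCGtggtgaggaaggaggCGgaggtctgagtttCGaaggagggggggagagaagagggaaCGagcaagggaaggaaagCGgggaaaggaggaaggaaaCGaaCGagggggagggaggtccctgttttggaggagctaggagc

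In both MMP10 and MMP7 the AP-1 match began 67 bases before the start, as TGAATCA in MMP10 and TGAGTCA in MMP7, and of the 16 promoters searched these 2 held either motif. MMP1, MMP9, MMP13, MMP17, MMP25, TIMP2, ADAM9, ADAM11, ADAM28, ADAMTS15 and ADAMTS16 were not among those searched. TGANTCA, searched on both strands, was present in 6.57% of 35116 promoters of the same length, and TATAAA, searched on the gene's strand, in 6.80%. The motifs did not overlap each other in these sequences. The CpG count was 2 in MMP10, 3 in MMP7, 7 in MMP14 and 25 in ADAM10, against a median of 11 over all promoters. It was 31 in both ADAM17 and MMP15. These are matches of letters, and neither binding nor methylation was measured here.

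Read totals ranged from 20994462 to 25981097 per library. Levels are in CPM (read counts scaled to a common library total) with library sizes adjusted by the trimmed mean of M values (TMM), and the 27 members took 0.158% to 0.261% of a library's reads. TET1 stood at 882 and 957 CPM in OE. TET1 had 4, 0 and 8 reads in KO, 0 and 1 in Lipo and 2, 7 and 0 in WT. The wild-type cells thus held so little TET1 RNA that these reads could not check the knockout, and a library with 0 reads allows up to 0.117 CPM in KO and 0.131 CPM in WT. WT 1 and KO 1 had the most genes read, with 21239 in KO 1 and 21450 in WT 1, against 18772 to 20832 in the other libraries. Counts of members that passed are also given below without both, a choice made after the data were seen. Mitochondrial RNA took 8.72% and 8.04% of the Lipo reads, against 4.74% to 7.25% elsewhere. Markers of lung and other epithelium summed to 9139 to 12418 CPM in KO, 13617 to 13763 in OE, 11792 to 12411 in Lipo and 12056 to 13233 in WT. Leukocyte markers summed to at most 4.09 CPM in any library.

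Per kilobase of exon, which allows genes to be compared with each other, MMP14 was the most abundant member in WT at 151 ± 19.3 CPM per kb (SD, n = 3). TIMP1 followed at 61.8 ± 6.91, then ADAM15 at 40.7 ± 8.63, ADAM9 at 33.6 ± 6.96 and TIMP2 at 29.4 ± 2.81 CPM per kb. The WT libraries of ADAM15 and ADAM9 overlapped, as did those of ADAM9 and TIMP2, while MMP14, TIMP1 and TIMP2 were each separated from the next member down. MMP15 (21.9 ± 5.78), MMP9 (14.0 ± 9.24) and MMP13 (13.9 ± 0.346 CPM per kb) came next, and MMP9, spread by WT 1, overlapped both MMP15 and MMP13. ADAM17 stood at 7.93 ± 0.191 and ADAM10 at 5.77 ± 0.140 CPM per kb. From ADAM11 down, the 10 lowest members averaged 0.263 CPM per kb or less in WT, and 5 of these were ADAMTS genes. MMP13 held 17.2% of all member reads in each OE library, and 0.976% to 2.66% in each of the other 8.

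**Figure D1:**
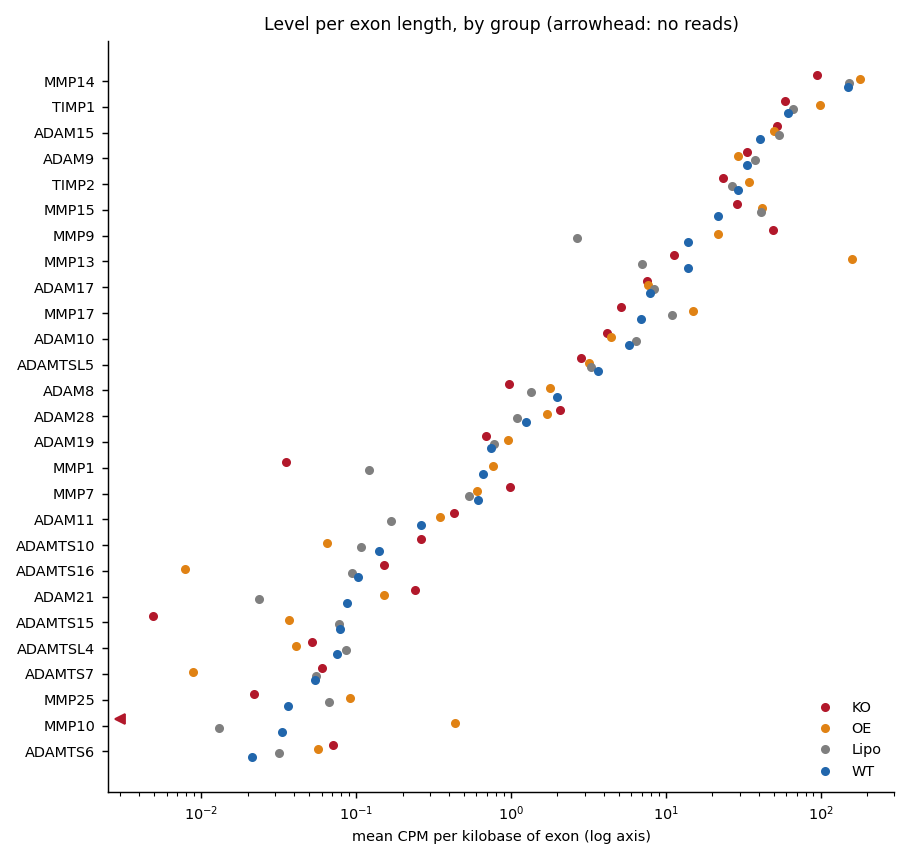
Mean level of each of the 27 members per kilobase of exon (CPM per kb, log axis) in KO, OE, Lipo and WT, ordered by the WT level. MMP14 heads the list in all groups, MMP13 moves up to 160 CPM per kb in OE, and the arrowhead marks MMP10, which had no reads in KO.

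In KO against WT, 6 of the 27 members passed the test (adjusted p under 0.05 by edgeR's quasi-likelihood test), 2 higher (MMP9 and ADAM28) and 4 lower (MMP1, MMP14, ADAM10 and ADAMTS15). Over all 15832 genes tested, 12.6% passed, 5.13% higher and 7.45% lower. The members' median log2 fold change was -0.07, against 0.0034 over all genes. Without WT 1 and KO 1, 9 members passed (ADAM15, ADAM28, MMP15 and MMP9 higher, and ADAM10, ADAM8, MMP1, MMP13 and MMP14 lower), against 2909 of 15650 genes. Without Lipo 3, which shares the error estimate, only ADAM28, MMP1 and MMP14 of the 6 kept their call.

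In OE against Lipo, 7 members passed, 6 higher (MMP13, MMP9, MMP1, MMP10, ADAM28 and TIMP1) and 1 lower (ADAM10), against 12.3% of all genes (6.79% higher and 5.53% lower). The median log2 fold change of the members was 0.30, against -0.0071 over all genes. All 9 MMPs had a fitted log2 fold change above 0 (8 of 9 with WT as the control), down to 0.02 for MMP15 (SE 0.23), and 4 passed. With only 2 libraries a side, this count leaned on each of them: MMP13 alone passed without Lipo 2 or without Lipo 3, MMP13 and MMP9 without OE 1, and MMP13, MMP9 and MMP1 without OE 2. It was 4 without WT 2 (1616 of 15706 genes) or WT 3 (1711 of 15714 genes). When OE and Lipo were fitted alone it was 12, where 5664 of 14532 genes passed. A gene that became a member through the reads of a single group had to differ between groups, so these counts describe the members and carry no further weight.

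**Figure D2:**
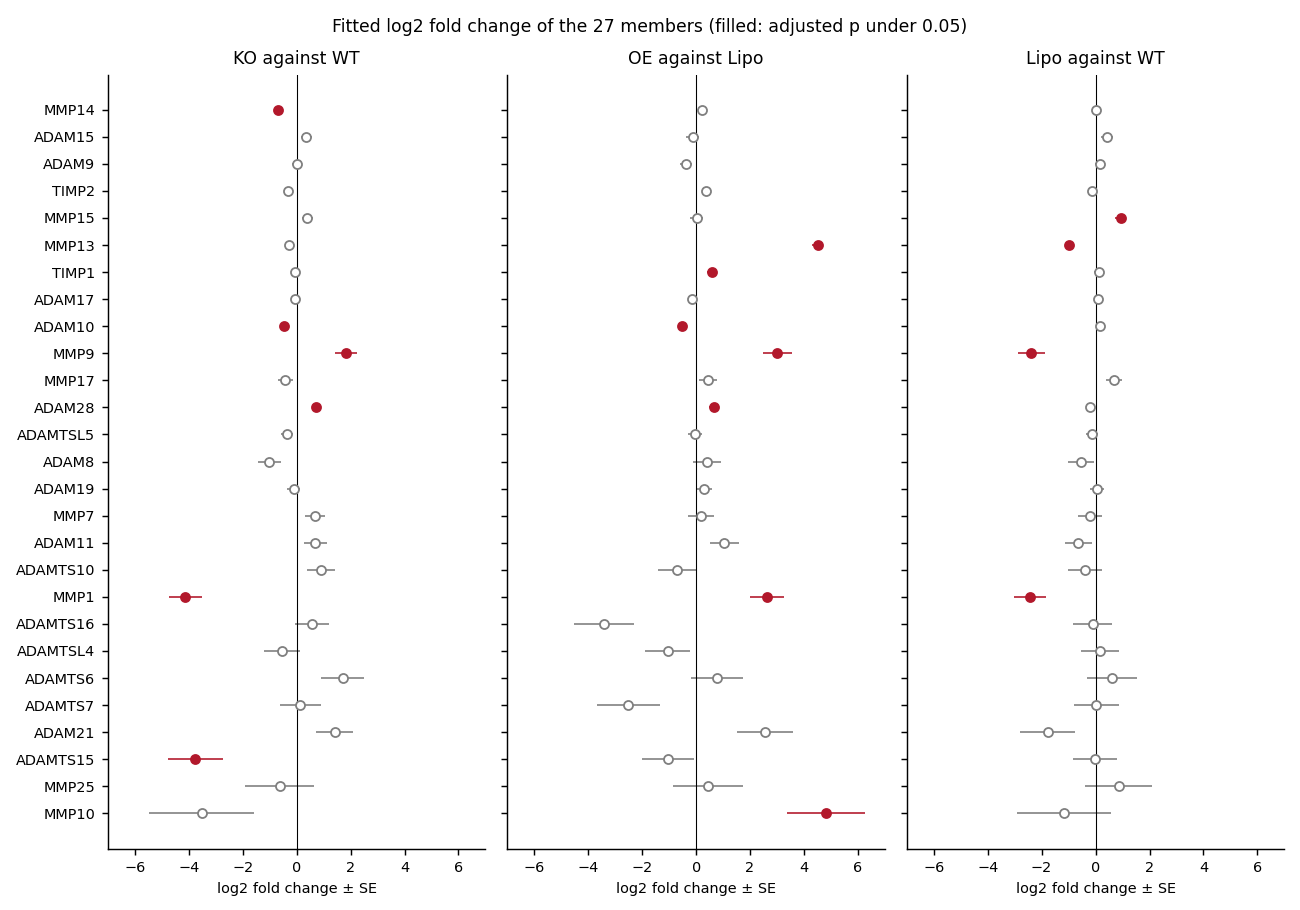
Fitted log2 fold change with its standard error (SE) for the 27 members, ordered by level, in KO against WT, OE against Lipo and Lipo against WT. Filled points passed at adjusted p under 0.05: 6, 7 and 4 members.

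The collagenase MMP13 (ENSG00000137745, chromosome 11, 102942995 to 102955734, minus strand, GRCh38) was the 1 member whose call in OE against Lipo held in all 20 alternatives of that comparison. It stood at 443 and 463 CPM in OE, against 20.4 and 19.5 CPM in Lipo and 40.4, 39.1 and 38.5 CPM in WT. Both OE libraries lay far above every other library. The rise was 22.7-fold over Lipo (log2 4.50, SE 0.20, adjusted p = 9.18e-10), and log2 3.52 with WT as the control. In KO it stood at 40.5, 26.1 and 30.3 CPM. KO and WT overlapped through KO 1, and the difference did not pass (log2 -0.29, SE 0.14, adjusted p = 0.222), while without KO 1 it was called lower. Lipo was lower than WT in MMP13 (log2 -0.98, SE 0.17, adjusted p = 0.00512), a call that ended without Lipo 2 (0.0781) or Lipo 3 (0.127).

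The gelatinase MMP9 (ENSG00000100985, chromosome 20, 46008908 to 46016561, plus strand) was higher in KO than in WT and higher in OE than in Lipo. It stood at 74.4, 164 and 106 CPM in KO, against 57.5, 20.2 and 20.2 CPM in WT. Every KO library lay above every WT library, and WT 1 was well above the other WT libraries. MMP9 rose 3.52-fold in KO (log2 1.82, SE 0.41, adjusted p = 0.0145), or log2 2.51 without WT 1 and 2.74 without WT 1 and KO 1. That call ended without Lipo 2 or Lipo 3 and with no filter on low counts (adjusted p = 0.128). It also ended with a replicate block, the library number added to the fit (0.114 with all libraries, 0.271 in KO and WT alone). Over all alternatives the adjusted p ranged from 4.7e-07 to 0.271.

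In OE, MMP9 stood at 45.0 and 56.1 CPM, against 6.54 and 5.97 CPM in Lipo. It rose 8.08-fold (log2 3.01, SE 0.54, adjusted p = 0.00504). The Lipo libraries were also below WT (log2 -2.38, SE 0.51, adjusted p = 0.0305). OE lay within the WT range only through WT 1, and above WT 2 and WT 3. With WT as the control the OE value was log2 0.63 (adjusted p = 0.326), and log2 1.20 (0.282) with Lipo and WT pooled as 5 control libraries. The call of OE against Lipo also ended without Lipo 2 or Lipo 3, with no filter (0.0663) and with a replicate block (0.104). Over its alternatives the adjusted p ranged from 3.05e-18 to 0.326. The call of Lipo against WT ended without Lipo 2, Lipo 3 or OE 2, with no filter (0.165) and with a replicate block (0.237). Its log2 value was -1.69 without WT 1.

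The interstitial collagenase MMP1 (ENSG00000196611, chromosome 11, 102789920 to 102798160, minus strand) was nearly absent from KO. Its reads were 1, 2 and 2 in KO, against 26, 46 and 24 in WT. The level was 0.0696 ± 0.0225 CPM in KO and 1.31 ± 0.387 CPM in WT (SD, n = 3 each), and it fell by 4.13 on the log2 scale (SE 0.62, adjusted p = 4.15e-04). That call held in all 20 alternatives run. MMP1 entered the members through its WT and OE reads, so that it was lower in KO and Lipo follows in part from the rule. OE held 38 and 25 reads, against 6 and 5 in Lipo, a rise of log2 2.63 (SE 0.64, adjusted p = 0.0149). OE lay at the level of WT (log2 0.20 with WT as the control, adjusted p = 0.804, and 0.76 with all 5 wild-type-labelled libraries, 0.462), and Lipo below it (log2 -2.43, SE 0.61, adjusted p = 0.0397). The call in OE ended without OE 1 (0.121), Lipo 2 (0.0967) or Lipo 3 (0.117). That of Lipo against WT ended without WT 1 (0.0666), WT 2 (0.146) or WT 3 (0.0708), without OE 1, Lipo 2 or Lipo 3, and with a replicate block (0.0601).

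The stromelysin MMP10 (ENSG00000166670, chromosome 11, 102770503 to 102780628, minus strand), whose upstream sequence is printed above, was read almost only in OE. It had 20 and 12 reads in OE, against 0 and 1 in Lipo. KO held no read in 3 libraries, which allows up to 0.0420 CPM over the group, and WT held 1, 0 and 3 reads. The summed level in OE was 35.0 times that in Lipo (95% interval 5.85 to 1425, counting error only), and the test passed at adjusted p = 0.0472. MMP10 entered the members through its OE reads, so that it differed follows in part from the rule. The call ended without WT 1 (0.0533), WT 3 (0.0528), OE 1 (0.260), OE 2 (0.133), Lipo 2 (0.316) or Lipo 3 (0.191), with no filter (0.0847) and in DESeq2 (0.0876). With WT as the control it passed (adjusted p = 0.0281), and over all alternatives the adjusted p ranged from 0.00442 to 0.316. Stromelysin MMP3, with 9 reads in OE 1 and none elsewhere, was no member.

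MMP7 (ENSG00000137673, chromosome 11, 102520508 to 102530753, minus strand), whose upstream sequence also matched TGANTCA and TATAAA, differed less between groups. It stood at 2.34, 1.64 and 2.90 CPM in KO, 1.63 and 1.20 in OE, 1.58 and 0.912 in Lipo, and 1.47, 1.87 and 0.964 in WT. All groups overlapped their controls. The log2 difference was 0.67 in KO against WT (SE 0.37, adjusted p = 0.280) and 0.17 in OE against Lipo (SE 0.48, adjusted p = 0.862).

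**Figure D3:**
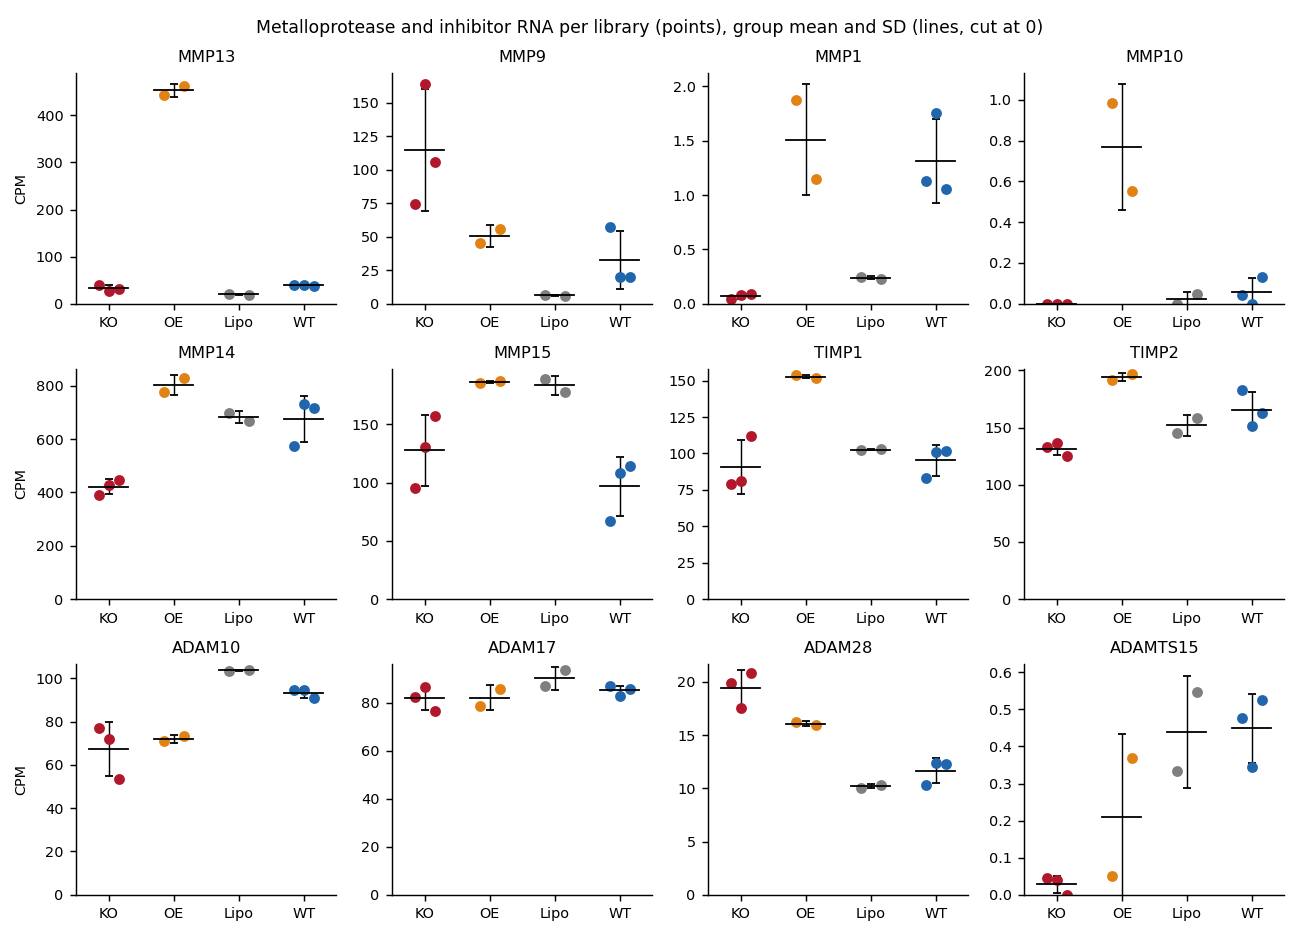
CPM of 12 members in each library (points), with the mean and SD of each group (lines, cut at 0), for KO, OE, Lipo and WT. MMP13 reaches 443 and 463 CPM in OE, MMP9 is highest in KO and lowest in Lipo, and MMP14 is at 391 to 446 CPM in KO and at 575 CPM or more in every other library.

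MMP7, MMP10, MMP1 and MMP13 lie in a cluster of 9 MMP genes on the long arm of chromosome 11, all on the minus strand, whose gene starts span 425 kb. The other 5 (MMP20, MMP27, MMP8, MMP3 and MMP12) had too few reads to be tested. In OE, MMP13, MMP1 and MMP10 of the 4 tested cluster genes rose over Lipo, against 6.79% of all genes. MMP10 is counted here although it became a member through its OE reads, and MMP1 although it did so through its OE and WT reads. The calls of MMP1 and MMP10 ended when single OE or Lipo libraries were left out, as given above. Of the 8 tested neighbours examined, 4 on each side, 3 rose and 2 fell, against 6.79% and 5.53% of all genes. BIRC3, an inhibitor of cell death whose gene starts 213 kb from that of MMP7, stood at 173 ± 12.1 CPM in OE and 18.1 ± 2.75 CPM in Lipo (SD, n = 2 each; log2 3.25, SE 0.32, adjusted p = 6.39e-06). BIRC2 (log2 0.53) and CASP4 (log2 0.48) also rose, and DYNC2H1 (log2 -0.93) and PDGFD (log2 -1.30) fell. The starts of DYNC2H1, PDGFD and CASP4 lie 579, 1634 and 2439 kb from that of MMP7. TMEM123, TMEM123-DT and DCUN1D5 were not called. In KO, MMP1 fell, and among the neighbours TMEM123-DT alone passed (log2 1.18, adjusted p = 0.0324). TMEM123-DT lies on the strand opposite TMEM123 and within it. Whether the region moved as a whole was not tested.

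**Figure D4:**
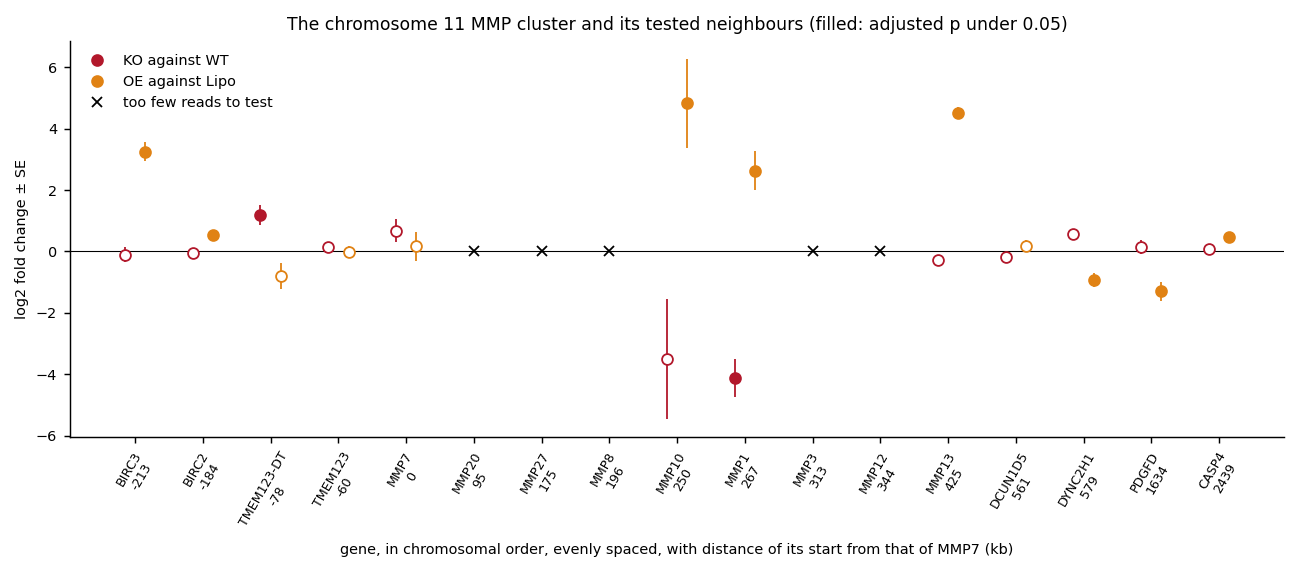
Log2 fold change with SE along the MMP cluster of chromosome 11 and the nearest tested genes, in KO against WT and OE against Lipo. Genes are evenly spaced in chromosomal order, with the distance of each start from that of MMP7 in kb, filled points passed at adjusted p under 0.05, and crosses mark 5 MMPs with too few reads. BIRC3 and MMP13, at 3.25 and 4.50 in OE, are among the highest filled points, with TMEM123, MMP7 and DCUN1D5 near 0, and the fitted values of MMP10 rest on 0 reads in KO and 1 in Lipo.

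The membrane-type enzyme MMP14 (ENSG00000157227, chromosome 14, 22836557 to 22849027, plus strand) was lower in KO. It stood at 391, 427 and 446 CPM in KO, against 575, 729 and 718 CPM in WT. No KO library reached a WT library. The fall was 1.60-fold (log2 -0.68, SE 0.12, adjusted p = 0.00142), and it passed in all 20 alternatives. OE held 776 and 830 CPM, against 699 and 667 CPM in Lipo. The groups did not overlap, but the difference did not pass (log2 0.23, SE 0.14, adjusted p = 0.325).

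MMP15 (ENSG00000102996, chromosome 16, 58025566 to 58046901, plus strand), another membrane-type enzyme, differed between the controls. It stood at 189 and 178 CPM in Lipo, against 67.4, 108 and 114 CPM in WT (log2 0.92, SE 0.21, adjusted p = 0.0250). That call ended without Lipo 2 (0.199) or Lipo 3 (0.190). OE, at 185 and 187 CPM, lay at the level of Lipo (log2 0.02, SE 0.23, adjusted p = 0.971), so that with WT as the control it was called higher (log2 0.94, adjusted p = 0.00476). KO stood at 95.7, 130 and 157 CPM, and its difference from WT did not pass (log2 0.40, SE 0.19, adjusted p = 0.197). The membrane-anchored MMP17 stood at 20.6 ± 7.72 CPM in KO, 60.5 ± 2.84 in OE, 44.2 ± 6.46 in Lipo and 27.6 ± 10.4 in WT, and passed in OE against WT alone (log2 1.13, adjusted p = 0.0133). The strand setting of the counting is not given in the sources used here. MMP25 (47 reads in all 10 libraries) was not called in any of the comparisons, and MMP25-AS1, on the opposite strand, had 4018.

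Summed over the 9 MMPs, the level was 617 to 770 CPM in KO, 1516 and 1597 CPM in OE, 966 and 911 CPM in Lipo and 758 to 931 CPM in WT. MMP14 made up 23.6% to 25.7% of member reads in KO, 30.1% and 30.8% in OE, 33.4% in each Lipo library and 35.5% to 36.8% in WT. Fibroblast markers, a list that shares collagen genes with MMP substrates, moved with several MMPs. They summed to 70.9 to 77.7 CPM in KO, 343 to 351 in OE, 170 to 183 in Lipo and 177 to 289 in WT. The defining markers DCN, PDGFRA, PDGFRB and THY1 had no read in any library, so 4 of 9 were absent, and most of the sum was COL1A1 and LUM. Both fell in KO (log2 -1.86 and -0.72) and rose in OE (log2 0.99 and 0.87). Endothelial markers summed to 91.4 to 106 CPM in KO, 90.0 to 101 in OE, 82.6 to 86.6 in Lipo and 114 to 117 in WT, nearly all of it KDR. The part of these other cell types' genes in the results was not tested. In such bulk RNA, fewer cells of a type and less RNA per cell cannot be told apart.

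Of the inhibitors, TIMP1 and TIMP2 were members. TIMP1 (ENSG00000102265, chromosome X, 47582313 to 47586789, plus strand), a secreted inhibitor that binds the precursor of MMP9, stood at 154 and 152 CPM in OE, against 103 and 103 CPM in Lipo and 82.9, 101 and 101 CPM in WT. Both OE libraries were above all the others. It rose 1.49-fold (log2 0.57, SE 0.17, adjusted p = 0.0443), and log2 0.68 with WT as the control (adjusted p = 0.00583). The call ended without WT 2 (0.0611), WT 3 (0.0574), OE 1 (0.190), OE 2 (0.172), Lipo 2 (0.217) or Lipo 3 (0.231), and over all alternatives the adjusted p ranged from 4.77e-09 to 0.231. In KO it stood at 78.9, 80.8 and 112 CPM, a log2 difference from WT of -0.07 (SE 0.14, adjusted p = 0.805).

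TIMP2 (ENSG00000035862, chromosome 17, 78852977 to 78925387, minus strand), which at the cell surface takes part in the activation of MMP2 by MMP14, stood at 133, 137 and 126 CPM in KO, against 183, 151 and 163 CPM in WT. The groups did not overlap, and the difference missed the threshold (log2 -0.33, SE 0.11, adjusted p = 0.0649), while DESeq2 called it. In OE it stood at 192 and 197 CPM, against 145 and 158 CPM in Lipo (log2 0.36, SE 0.14, adjusted p = 0.104). The 2 effects differed from each other (KO effect minus OE effect, log2 -0.69, SE 0.18, adjusted p = 0.0148), although that call ended without OE 1 (0.0664), OE 2 (0.0838), Lipo 2 (0.104) or Lipo 3 (0.0549). TIMP3, with 7 reads, and TIMP4, with 14, were no members, nor was the gelatinase MMP2, with 6 reads in all. The ratio of MMP9 to TIMP1 in CPM was 0.943, 2.03 and 0.941 in KO, 0.293 and 0.370 in OE, 0.0637 and 0.0581 in Lipo and 0.694, 0.199 and 0.199 in WT.

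Among the ADAM sheddases, ADAM10 (ENSG00000137845, chromosome 15, 58588807 to 58749978, minus strand), which releases NOTCH and adhesion proteins, was called lower in both KO and OE. It stood at 76.9, 71.8 and 53.4 CPM in KO, against 94.8, 94.6 and 90.7 CPM in WT (log2 -0.47, SE 0.13, adjusted p = 0.0309). In OE it stood at 70.8 and 73.4 CPM, against 104 and 104 CPM in Lipo (log2 -0.52, SE 0.16, adjusted p = 0.0479). No library of KO or OE reached any Lipo or WT library. Both values stood close to the threshold. In KO the call ended without KO 3 (0.0501), WT 2 (0.111), WT 3 (0.0712), OE 1 (0.0605), OE 2 (0.0604), Lipo 2 (0.0542) or Lipo 3 (0.0544) and with KO and WT fitted alone (0.105), with log2 values from -0.58 to -0.33 over all alternatives. In OE the call ended without any 1 OE or Lipo library (0.184 to 0.260), without KO 2 (0.0603), WT 2 (0.0782) or WT 3 (0.0664), with library size alone (0.0548), with WT as the control (0.0826) and with all 5 wild-type-labelled libraries (0.0531), with log2 values from -0.64 to -0.37. Over all alternatives the adjusted p ranged from 0.00392 to 0.111 in KO and from 4.09e-07 to 0.260 in OE.

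ADAM17 (ENSG00000151694, chromosome 2, 9488486 to 9556732, minus strand), which sheds TNF and ligands of the EGF receptor, varied little. It stood at 82.3, 86.5 and 76.8 CPM in KO, 78.6 and 85.9 in OE, 87.0 and 93.8 in Lipo and 86.9, 82.9 and 85.8 in WT. The log2 difference was -0.06 in KO against WT (SE 0.11, adjusted p = 0.797) and -0.14 in OE against Lipo (SE 0.13, adjusted p = 0.570). ADAM17 overlaps IAH1 on the opposite strand, which had 9177 reads. ADAM9, another sheddase, stood at 259, 268 and 172 CPM in KO, 192 and 213 in OE, 274 and 249 in Lipo and 179, 273 and 245 in WT, and neither comparison passed (log2 0.01, SE 0.17, and -0.37, SE 0.21).

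ADAM28 (ENSG00000042980), found in lymphocytes and in lung epithelium, was higher in both KO and OE. It stood at 19.9, 17.5 and 20.8 CPM in KO, against 10.3, 12.4 and 12.3 CPM in WT (1.66-fold, log2 0.73, SE 0.15, adjusted p = 0.00522). No KO library overlapped WT, and the call held in all 20 alternatives. In OE it stood at 16.2 and 15.9 CPM, against 10.1 and 10.3 CPM in Lipo (log2 0.65, SE 0.19, adjusted p = 0.0341). That call ended without WT 2 (0.0527) and without any 1 OE or Lipo library (0.145 to 0.206), with no filter (0.0794) and with WT as the control (0.0586), and over all alternatives the adjusted p ranged from 0.00225 to 0.206.

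The other ADAM members were not called in KO against WT, OE against Lipo or Lipo against WT. ADAM15 stood at 345 ± 104 CPM in KO, 328 ± 2.30 in OE, 357 ± 21.5 in Lipo and 268 ± 56.8 in WT. ADAM8, known from myeloid cells and tumours, stood at 2.07, 3.75 and 8.23 CPM in KO, against 4.03, 12.1 and 12.2 CPM in WT, and KO 1 and WT 1 were the lowest of their groups. Its log2 difference was -1.01 (SE 0.43, adjusted p = 0.146), and without WT 1 and KO 1 it was called lower. ADAM19, which overlaps CYFIP2 (10884 reads) on the opposite strand, stood at 5.29 ± 1.11 CPM in KO, 7.38 ± 0.882 in OE, 5.98 ± 0.568 in Lipo and 5.72 ± 1.39 in WT. ADAM11 stood at 2.05 ± 0.685 CPM in KO, 1.66 ± 0.856 in OE, 0.800 ± 0.164 in Lipo and 1.26 ± 0.449 in WT. ADAM21, with 82 reads in all, reached 10 reads in the 3 KO libraries and in 1 OE library.

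The ADAMTS and ADAMTSL genes were low. The aggrecan-cleaving ADAMTS15 (ENSG00000166106, chromosome 11, 130448974 to 130476641, plus strand) had 1, 1 and 0 reads in KO, against 11, 9 and 12 in WT. The summed level in WT was 15.8 times that in KO (95% interval 4.04 to 136, counting error only), and the fall passed at adjusted p = 0.0243. ADAMTS15 entered the members through its WT and Lipo reads, so that it was lower in KO follows in part from the rule. The call ended without KO 2 (0.0553), KO 3 (0.0697), WT 3 (0.0719) or Lipo 3 (0.0502), and without WT 1 and KO 1 together (0.0657), over a range of 0.0169 to 0.0719. ADAMTS15 had 1 and 8 reads in OE, against 8 and 12 in Lipo, and was not called there. In OE against Lipo 0 of the 5 ADAMTS members passed in edgeR and 0 in DESeq2, with 2 at an unadjusted p under 0.05. ADAMTSL5, the most abundant of the 7, stood at 10.3 ± 3.06 CPM in KO, 11.6 ± 0.132 in OE, 12.0 ± 1.14 in Lipo and 13.2 ± 2.26 in WT. The other 5 (ADAMTS6, ADAMTS7, ADAMTS10, ADAMTS16 and ADAMTSL4) had 87 to 210 reads each over the 10 libraries.

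In Lipo against WT, 4 members passed, MMP15 higher and MMP9, MMP1 and MMP13 lower, against 3.7% of all genes (1.32% higher and 2.38% lower). The members' median was -0.03, against -0.017 over all genes. None passed without Lipo 2 or without Lipo 3, where 5 and 4 members had an unadjusted p under 0.05, and DESeq2 called 4 with all libraries. With WT in place of Lipo as the control of OE, 6 members passed (MMP13, MMP10, MMP15, MMP17 and TIMP1 higher, and ADAMTS16 lower), against 25.0% of all genes. MMP13, MMP10 and TIMP1 were called with either control, while MMP9, MMP1, ADAM10 and ADAM28 passed against Lipo alone. These comparisons share their OE libraries.

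The effects of KO and OE differed in 6 members, against 16.6% of all genes (7.16% higher and 9.47% lower). MMP13 (log2 -4.79, SE 0.24, adjusted p = 4.46e-09), MMP1 (log2 -6.76, SE 0.90, adjusted p = 1.13e-04), MMP10, MMP14 (log2 -0.91, SE 0.18, adjusted p = 0.00338) and TIMP2 were lower in KO against WT than in OE against Lipo. ADAMTS16, named because it was the 1 member higher in this test, had 21, 34 and 10 reads in KO, 0 and 2 in OE, 20 and 6 in Lipo and 15, 13 and 15 in WT (adjusted p = 0.0452). That call ended without any 1 of KO 1 (0.0604), KO 2 (0.0880), WT 1 (0.0574), WT 2 (0.0864), WT 3 (0.0709), OE 1 (0.173) or Lipo 2 (0.233), and without WT 1 and KO 1 together (0.0723). The fitted difference for ADAMTS16 was log2 3.99, and 7.29 without OE 2, which leaves OE with 0 reads. The call of MMP10 ended likewise without KO 1 (0.0502), KO 2 (0.0591), WT 1 (0.0520), WT 3 (0.193), OE 1 (0.129), OE 2 (0.0770), Lipo 2 (0.123) or Lipo 3 (0.0758), and without WT 1 and KO 1 together (0.0601). MMP13, MMP1 and MMP14 held in all 17 alternatives run, none of which set OE against a control other than Lipo. Against WT, the OE values were log2 3.52 for MMP13, 0.20 for MMP1 and 0.25 for MMP14. Lipo itself was below WT in MMP1 (log2 -2.43) and MMP13 (log2 -0.98). For MMP9, which rose in both, the difference did not pass (log2 -1.20, SE 0.65, adjusted p = 0.247).

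Genes that act with these proteases were counted in lists chosen for their known roles. The shares to read each count against are those over all genes, 5.13% higher and 7.45% lower in KO, and 6.79% higher and 5.53% lower in OE. In the plasminogen system, whose product plasmin activates several MMP precursors, 3 of 6 tested genes fell in KO and 3 rose in OE (medians -0.60 and 0.49). Urokinase, PLAU, stood at 268 ± 29.3 CPM in KO and 639 ± 95.1 CPM in WT (SD, n = 3 each), and at 1199.7 ± 18.8 CPM in OE and 622 ± 12.5 CPM in Lipo (SD, n = 2 each). It fell in KO (log2 -1.25, adjusted p = 1.1e-05) and rose in OE (log2 0.95, adjusted p = 9.23e-04). Its receptor, PLAUR, fell in KO (log2 -0.93, adjusted p = 3.24e-04) and rose in OE, to 242 ± 8.94 CPM against 50.1 ± 4.98 CPM in Lipo (log2 2.27, adjusted p = 2.57e-07). Tissue activator PLAT fell in KO (log2 -0.96, adjusted p = 0.0125), but not without KO 2, WT 2 or WT 3 (0.0510 to 0.0591) or with a replicate block (0.0894). ANXA2, a plasminogen-binding protein, rose in OE (log2 0.53, adjusted p = 0.0177), but lost that call without any 1 OE or Lipo library (0.112 to 0.180), which left 2 rising.

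Other inhibitors and clearance receptors gave 3 of 5 tested genes lower in KO, and 2 higher and 2 lower in OE (medians -0.99 and 0.28). TFPI2, an inhibitor of plasmin and of some MMPs, stood at 66.6 ± 9.97 CPM in KO and 132 ± 5.65 CPM in WT, and at 204 ± 3.43 CPM in OE and 96.3 ± 6.20 CPM in Lipo. It fell in KO (log2 -0.99, adjusted p = 9.37e-05) and rose in OE (log2 1.08, adjusted p = 2.44e-04). TFPI fell in both (log2 -1.30 in KO and -0.73 in OE), and the call in OE ended without any 1 OE or Lipo library (0.0554 to 0.0794). So did that of the clearance receptor LRP1 (0.0928 to 0.251), the other gene lower in OE. SERPINA1, the antitrypsin gene, rose in OE (log2 1.26, adjusted p = 0.00153), and SPOCK1 fell in KO (log2 -2.51, adjusted p = 0.00308). RECK, a membrane inhibitor of MMPs, had 1 read in KO and none in OE.

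Of the surface partners that hold MMPs at the cell or stabilise them, 3 of 6 tested genes fell in KO and 2 rose in OE (medians -0.61 and 0.31). CD44, the hyaluronan receptor that docks MMP9, stood at 0.0872 ± 0.0866 CPM in KO and 12.6 ± 3.71 CPM in WT (log2 -7.14, adjusted p = 9.07e-08; -6.53 without KO 2 and -8.07 without KO 3). The integrin chain ITGAV fell in KO (log2 -1.16, adjusted p = 8.33e-04). CLDN1, a claudin that binds MMP14 and MMP2, rose in OE (log2 1.81, adjusted p = 3.28e-05), to 114 ± 1.46 CPM against 32.4 ± 5.00 CPM in Lipo, and fell in KO (log2 -0.61, adjusted p = 0.0270), a call that ended without KO 1, KO 3, WT 1 or WT 3 (0.0527 to 0.0925). LCN2, which forms a complex with MMP9, rose in OE (log2 0.67, adjusted p = 0.0324), but not without any 1 OE or Lipo library (0.121 to 0.236).

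For the sheddases, 3 of 9 iRhoms and tetraspanins, which carry ADAM17 and ADAM10 to the surface, fell in KO (median -0.22). They were TSPAN17 (log2 -0.75, adjusted p = 0.00203), RHBDF1 (log2 -1.06, adjusted p = 0.00215) and TSPAN14 (log2 -0.40, adjusted p = 0.0452), the last lost without any 1 library other than KO 3 or WT 1 (0.0525 to 0.167). In OE 0 of 9 passed in edgeR and 0 in DESeq2, with 2 at an unadjusted p under 0.05. Of 15 tested genes whose proteins these sheddases release, 9 fell in KO (7 to 9 with 1 library left out), and 3 rose in OE (medians -0.50 and 0.30). Without WT 1 and KO 1, 5 rose and 2 fell in OE. The chemokine CX3CL1 stood at 27.3 ± 6.59 CPM in KO and 123 ± 13.1 CPM in WT, and at 267 ± 3.31 CPM in OE and 96.8 ± 1.80 CPM in Lipo (log2 -2.17 in KO, adjusted p = 4.56e-07, and 1.46 in OE, adjusted p = 1.32e-04). CXCL16 (log2 -0.50 in KO and 1.71 in OE) and ICAM1 (log2 -0.46 and 1.83) had the same signs, with the KO call of CXCL16 lost without WT 2 (0.0572) and that of ICAM1 lost without any 1 library but KO 2 or WT 2 (0.0525 to 0.144). These are RNA levels, and shedding was not measured.

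**Figure D5:**
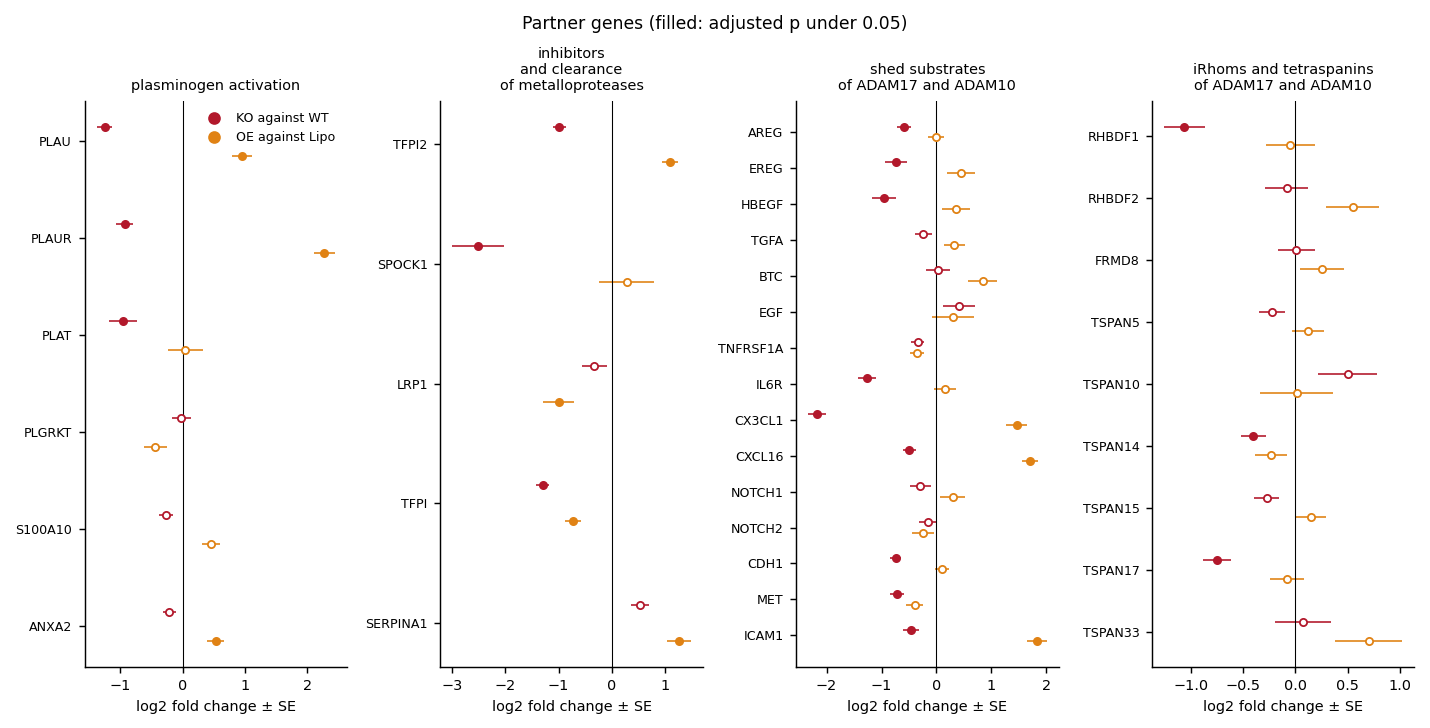
Log2 fold change with SE of the tested genes of 4 partner lists, in KO against WT and OE against Lipo, filled where adjusted p was under 0.05. PLAU, PLAUR, TFPI2, CX3CL1, CXCL16 and ICAM1 lie left of 0 in KO and right of 0 in OE, and the iRhoms and tetraspanins have no filled point in OE.

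In the remaining lists, 3 of 11 tested cathepsins and cystatins fell in KO, and 2 rose and 2 fell in OE (medians -0.11 and 0.11). The lysosomal protease CTSZ stood at 20.9 ± 4.85 CPM in KO and 223 ± 31.0 CPM in WT (log2 -3.42, adjusted p = 9.03e-09), and CTSL fell in KO (log2 -1.21) and rose in OE (log2 1.07). The call of CSTB in KO ended without any 1 library but KO 1 or WT 3 (0.0540 to 0.113). The 2 lower in OE were CTSV and CTSK. Both lost their call without OE 2 or Lipo 2, CTSV also without OE 1 and CTSK also without Lipo 3 (0.0609 to 0.181). Over all genes 7.45% were lower in KO and 5.53% in OE. Of 19 tested transcription factors known at MMP promoters, 1 rose and 2 fell in KO, and 6 rose and 2 fell in OE (medians -0.06 and 0.20). The AP-1 subunits FOSB (log2 -1.82, adjusted p = 7.89e-04) and FOS (log2 -1.42, adjusted p = 0.00124) fell in OE, while NFKB1 (log2 0.99, adjusted p = 7.80e-04) and ETS1 (log2 0.92, adjusted p = 8.56e-04) rose. FOSB was also 1 of the 2 falls in KO, a call lost without KO 3 (log2 -0.95, 0.0514) or WT 3 (log2 -0.61, 0.108). Other AP-1 subunits, FOSL1 and FOSL2, were also among the 6 rises. With OE 1, Lipo 2 or Lipo 3 left out, FOSL1 stood at log2 0.68 to 0.73 and FOSL2 at 0.69 to 0.79, and both lost their call. The 6 rises were 2 without OE 1, Lipo 2 or Lipo 3. RUNX2, the 1 rise in KO, was lost without any 1 library but KO 1 or KO 3 (0.0606 to 0.134), and the 3 calls of 19 in KO stand beside 12.6% of all genes. Of 5 tested substrates of ADAMTS proteases, 2 fell in KO: COL1A1 and versican, VCAN, which had 2 reads in KO and 122 in WT (adjusted p = 2.99e-04). In OE COL1A1 rose, but not without OE 2, Lipo 2 or Lipo 3 (0.0519 to 0.0817), and VCAN fell, but not without OE 1, Lipo 2 or Lipo 3 (0.0565 to 0.121). Among 3 proprotein convertases, MBTPS1 fell in OE (log2 -0.52, adjusted p = 0.0138, lost without any 1 OE or Lipo library, 0.102 to 0.142), and none passed in KO in edgeR or DESeq2, with 1 at an unadjusted p under 0.05. Of 2 other metzincins tested, BMP1, the procollagen C-proteinase, rose in KO to 96.4 ± 15.5 CPM, against 58.7 ± 2.79 CPM in WT (log2 0.72, adjusted p = 0.00189).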

How the data were processed

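Total RNA libraries of H441 cells (stranded kit, per the labels' protocols) were given as 1 table of raw gene counts, which the authors deposited without normalization. Per the submitters' processing notes, featureCounts, HISAT2 (2.1.0), edgeR, FastQC and the GRCh38 build were used, with no role or order given. Of 62710 entries, 1 had no values, and 2 columns matching no sample were not used. Groups followed the labels. The members and gene lists were chosen with earlier results of these data known. Some genes of the lists are not reported here and enter no count of a list. Genes named are TET1, members called in a comparison, a set of main enzymes and inhibitors, up to 6 other members by level, and up to 4 genes a list by smallest p. Some further list genes are named where a call was lost or related genes moved both ways.

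Counts of all 10 libraries were fitted together in edgeR 4.0.16 (R 4.3.3; TMM, filterByExpr, robust quasi-likelihood, 1 coefficient per group), which kept 15832 genes, the 27 members among them. Tests were two-sided, and p-values were adjusted over all genes by Benjamini-Hochberg (threshold 0.05). The procedure was tested on simulated data with 200 genes changed, drawn with the same spread in every group. At 2-fold it recovered 64.2% in KO against WT, 56.7% in OE against Lipo and 47.8% in Lipo against WT. At 1.5-fold these shares were 17.9%, 16.4% and 19.4%, so many changes of that size would not pass. The labels do not say that libraries came from separate cultures, so p-values measure only the spread between libraries. That spread was estimated over all groups together, although libraries of OE and of Lipo differed less among themselves. The chi-square per degree of freedom between libraries of a group was 4.70 in OE, 5.83 in Lipo, 36.6 to 60.1 in KO and 6.06 to 42.8 in WT. Intervals (95%, exact) and limits for 0 reads (3 reads) cover counting error only. Exon lengths and positions are from GENCODE on GRCh38. Alternatives were other scaling, filters, controls, DESeq2 1.42.0, a replicate block and leaving out libraries. Samples numbered alike in KO and WT correlated in their deviations at 0.33, 0.058 and 0.18 across genes. Those numbered unlike stood at -0.24 to 0.092. The labels do not name the numbers as pairs, so the main fit used no block, and a block was among the alternatives.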

Additional observations from a re-analysis of the deposited data

How the results depend on the processing

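With 1 library left out, the members called ranged from 3 to 9 in KO against WT, 1 to 8 in OE against Lipo, 0 to 4 in Lipo against WT and 3 to 8 in the difference of effects. Over all genes the counts ranged from 1125 to 2297, 673 to 2657, 34 to 977 and 1373 to 3023, against 1992, 1950, 586 and 2632 with all libraries. Fitting the compared groups alone gave 1216 genes in KO against WT, and 5664 genes and 12 members in OE against Lipo. With WT as the control of OE, 3953 genes passed. Without WT 1 and KO 1, 8 members and 3477 genes passed in OE against Lipo, and 4 members and 1157 genes in Lipo against WT. In the difference of effects, 8 members and 3736 genes then passed, with MMP10 and ADAMTS16 no longer among them. No filter gave 1100 genes in Lipo against WT, and DESeq2 gave 992. With a replicate block in the fit of all libraries, 8 members passed in KO against WT, 8 in OE against Lipo, 2 in Lipo against WT and 9 in the difference of effects, and a block in KO and WT alone gave 9 members and 3368 genes. With the block, MMP9 was not called in KO against WT (adjusted p = 0.114 with all libraries and 0.271 in KO and WT alone), in OE against Lipo (0.104) or in Lipo against WT (0.237), nor MMP1 in Lipo against WT (0.0601), nor PLAT in KO against WT (0.0894). Each KO library correlated best with the WT library of its own number, a hint from the data and not the design. No result changed direction. The cause of these shifts was not tested. The 2 libraries a side in OE and Lipo, and the few reads of MMP1, MMP10 and ADAMTS15, limit what can be told.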
